A study of Mus musculus with 28 samples.

Results

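The genes described here are the members of 5 name families of membrane traffic: the Rab GTPases (names beginning with Rab and a digit, which takes in some of their partner proteins), the syntaxins (Stx), the VAMPs, the SNAP proteins and the Vps genes. Members were all genes with such a name in both deposited tables of the mouse tumour line MC38, except Stx11. This gave 106 members of the 12274 gene names that the tables share, with 52 Rab, 12 Stx, 7 Vamp, 3 Snap and 32 Vps names, and all 106 could be tested in both tables. A further 2 matching names were found in the in vitro table only (Rab11fip4os1 and Rab42) and 3 in the co-culture table only (Rab30, Rab9b-ps1 and Snap91), and these were not members. Among the members, Rab10os and Rab26os are annotated as antisense RNAs and Rab11b-ps2 as a processed pseudogene.

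MC38 is a mouse colon tumour cell line, and OT1 T cells are CD8 T cells that carry 1 transgenic receptor. The in vitro table holds 2 libraries each of untreated MC38 and of MC38 given TNF, IFNG (interferon gamma), TNF and IFNG together, or supernatant from a co-culture. The co-culture table holds 3 libraries each of MC38 alone, of MC38 that met OT1 T cells in the presence of an isotype antibody, and of MC38 that met them in the presence of anti-PD1, which blocks an inhibitory receptor of T cells. Cytokines and T cells were applied for 6 hours, and no time is given for the supernatant. All groups share the MC38 line, a single cell line, and the labels do not say whether libraries of a group are separate cultures. The p-values therefore measure the spread between these libraries, which may be technical. The sources used here do not say how MC38 and T cells were separated before RNA extraction.

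Rab proteins are small GTPases that switch between a GTP-bound form on a membrane and a GDP-bound form in the cytosol, and each marks a compartment or a transport step by recruiting its own effectors. SNARE proteins, among them syntaxins, VAMPs and SNAP proteins, sit on vesicles and target membranes and zip together to drive fusion. The Vps proteins were named for yeast mutants in vacuolar protein sorting and build the machines that sort cargo around endosomes: ESCRT complexes bud vesicles into the endosome, HOPS and CORVET tether endosomes and lysosomes, retromer returns cargo from endosomes, and GARP and EARP tether vesicles that come from endosomes. In tumour cells these genes bear on secretion, receptor recycling, lysosome function and antigen handling.

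Values are log2 CPM as deposited, the log2 of read counts scaled to a common library total (CPM), from libraries that read the 3' end of transcripts, so a level does not grow with transcript length. Depth was implied from the steps of the low values, and ran from 3360000 to 11200000 reads in vitro and from 3730000 to 11000000 in co-culture. The lowest in vitro was the second library given both cytokines, beside 7150000 in the first. The lowest in co-culture was the third library of MC38 alone. Every difference was taken within a table, because each was normalized on its own. Of 10 intestinal epithelial markers, 1 was listed in vitro and 5 in co-culture, with summed levels of 0.259 to 7.85 CPM and 1.61 to 33.3 CPM. The highest in vitro sum was in the second library given both cytokines and the highest co-culture sum in the first anti-PD1 library, and the part of these markers in the results was not tested. Of 23 T cell markers 3 were listed in vitro. Their sum was 9.16 CPM in the second library given both cytokines and 0.554 to 4.68 CPM in the others, and their part was not tested. The third library of MC38 alone stands apart: the summed level of 18 T cell markers (the list without Ifng) was 4.74 and 5.84 CPM in the other libraries of MC38 alone, 90.6 CPM in the third, and 93.7 to 134 CPM with OT1. The third anti-PD1 library has a title and a treatment field that call it untreated and a description that names the anti-PD1 co-culture. It was placed by its description. Its T cell markers summed to 126 CPM, within the range of the other co-culture libraries, and its Ifng level was 6.54 log2 CPM, beside -2.66 to 1.85 in MC38 alone. The second isotype library has a description that reads OT2 in place of OT1 and was placed by its title. Its T cell markers summed to 109 CPM, and without it 16 members passed with isotype in place of 21. Results that rest on the third library of MC38 alone or of anti-PD1 are also given without it.

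Most members were moderately expressed. The median member level was 4.11 log2 CPM in vitro and 4.22 in co-culture, beside 3.89 and 3.85 over all genes. Rab5c, an early endosome Rab, was the highest member in both tables, at 8.63 and 8.40 log2 CPM, and Rab15, a Rab of recycling endosomes, was the lowest, at -0.51 and -0.69. Within the secretory and recycling Rabs the highest was Rab10, at 7.19 and 7.13, and within the ER and Golgi Rabs it was Rab2a, at 7.36 and 7.67. The highest VAMP was Vamp8, a SNARE of endosomes and secretory granules, at 5.67 and 5.50, and the lowest Vamp5, at 0.04 and 0.34. Among the SNAP proteins Snap23, the widely expressed partner of plasma membrane syntaxins, was highest, at 4.81 and 5.48. The highest ESCRT member was Vps37b, at 6.19 and 6.46, and the highest retromer member Vps35, at 6.19 and 5.98.

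The co-culture comparison asks how the RNA of MC38 differs after contact with T cells. With OT1 and isotype, 21 of 106 members (19.8%) passed the threshold of an adjusted p of 0.05 (limma with Benjamini-Hochberg adjustment over all genes), beside 13.9% of all genes tested. Of these, 11 rose, where 7.64% of all genes rose, and 10 fell, where 6.22% of all genes fell. With OT1 and anti-PD1, 25 members (23.6%) passed, beside 16.1% of all genes, with 14 higher (background 8.42%) and 11 lower (background 7.71%). Both member shares are within 1.5 times their background. The 2 comparisons use the same libraries of MC38 alone, so their values are set side by side and are not independent. At an unadjusted p under 0.05 there were 34 members with isotype and 37 with anti-PD1, beside 28.3% and 30.7% of all genes. Counting members whose groups did not overlap gave 34 (32.1%) with isotype, beside 31.9% of all genes, and 43 (40.6%) with anti-PD1, beside 33.1%. The median absolute log2 fold change of the members was 0.26 with isotype and 0.32 with anti-PD1, beside 0.33 and 0.35 over all genes.

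**Figure D1:**
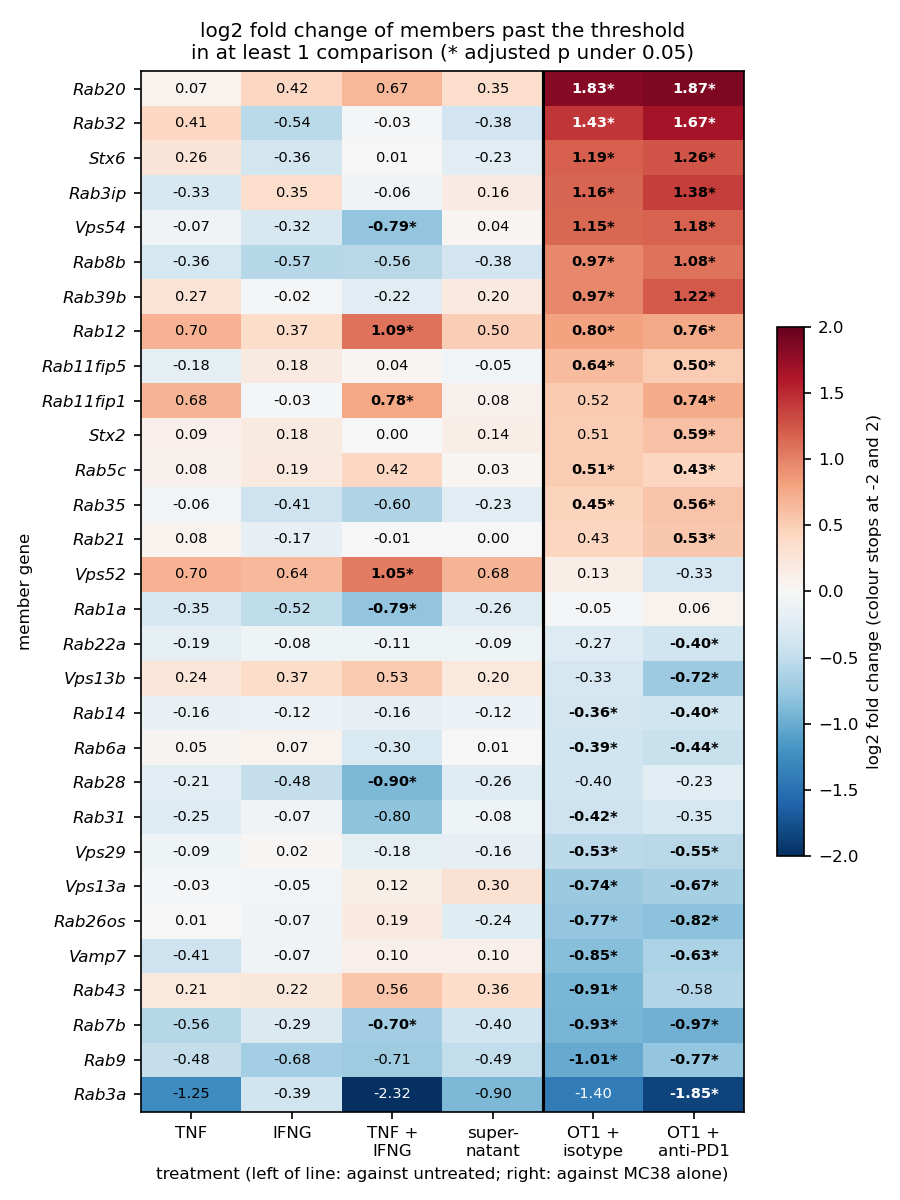
Log2 fold change of each member that passed the threshold in at least 1 comparison, in the 4 in vitro treatments against untreated MC38 (left of the line) and the 2 co-cultures against MC38 alone (right). Stars and bold type mark an adjusted p under 0.05, and rows are ordered by the fold with OT1 and isotype: Rab20, Rab32 and Stx6 stand at the top on the right (1.83, 1.43 and 1.19 with isotype) with no star on the left, and Vps54 is starred at -0.79 on the left and at 1.15 and 1.18 on the right.

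Promoter sequences are shown for Rab20, Rab32 and Stx6 because they rose together, with the largest folds or smallest p-values in co-culture. They are the bases from 250 to 71 before the RefSeq start of each gene (GRCm38.p6), read in the direction of the gene, and capitals mark each CG pair.
Rab20, chr8:11478711-11478890, minus strand: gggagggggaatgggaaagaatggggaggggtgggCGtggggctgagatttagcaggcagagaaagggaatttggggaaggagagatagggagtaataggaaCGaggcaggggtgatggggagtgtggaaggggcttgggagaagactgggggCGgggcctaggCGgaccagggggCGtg
Rab32, chr10:10558278-10558457, minus strand: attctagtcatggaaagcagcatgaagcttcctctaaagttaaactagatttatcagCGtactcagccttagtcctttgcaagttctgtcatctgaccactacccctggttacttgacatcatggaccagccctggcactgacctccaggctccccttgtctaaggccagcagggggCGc
Stx6, chr1:155158453-155158632, plus strand: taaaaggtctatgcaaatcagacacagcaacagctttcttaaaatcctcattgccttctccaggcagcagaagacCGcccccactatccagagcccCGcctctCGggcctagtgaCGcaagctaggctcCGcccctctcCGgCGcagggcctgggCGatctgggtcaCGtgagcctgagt
They hold 5, 2 and 9 CG pairs, beside a median of 11 over the 108 windows of members and 10 over the 10779 windows of genes tested in both tables. Of the 106 members, 85 have a RefSeq window. The whole windows of 300 bases (250 before to 50 after the start) were searched on both strands for TTCNNNGAA, a gamma-activated site, and for fixed forms of the interferon-stimulated response element core and of the kappa-B site. A match of one may overlap a match of another. The first was found in 9 of 85 member genes (10.6%, beside 9.55% of all genes with a window), the second in 4 (4.71%, beside 3.99%) and the third in 0 (beside 0.466%). Over the genes tested in both tables that have a window, the shares were 8.09%, 3.76% and 0.485%. Vamp8, Rab11a, Rab15, Rab34, Stx17, Vps37c, Vps50, Vps53 and Rab10os hold the first, and Vamp1, Vps26a, Vps41 and Rab10os the second. None of these members passed in any comparison. None of the 3 motifs was in the windows of the members that passed and have one (13 that rose and 10 that fell in co-culture, 5 with both cytokines), which says only that these letters are not in these windows.

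Over all genes tested, 13.9% passed with isotype and 16.1% with anti-PD1. The endosome and lysosome Rabs held the most members past the threshold, 7 of 14 with isotype (4 higher, 3 lower) and 8 of 14 with anti-PD1 (5 higher, 3 lower). The class was drawn up with these results known, so its count is a description. Rab32, a Rab of lysosome-related organelles and mitochondria, was at 4.23, 4.13 and 4.01 log2 CPM in the 3 libraries of MC38 alone, at 5.68, 5.33 and 5.66 with isotype, and at 5.68, 5.86 and 5.86 with anti-PD1. Every co-culture library lay above every library of MC38 alone. The gene lies on chromosome 10 from 10545002 to 10558265 (GRCm38, minus strand). Its level was 2.69-fold higher with isotype (log2 fold change 1.43 ± 0.14 SE, adjusted p = 7.57e-05, limma) and 3.18-fold higher with anti-PD1 (1.67 ± 0.14, adjusted p = 2.42e-05). These were the smallest p-values among the members in both comparisons.

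Rab20, a Rab of endosomes and maturing phagosomes (chromosome 8, 11453518 to 11478710, minus strand), was the most strongly raised member. It was at 1.33, 0.81 and 1.34 log2 CPM in MC38 alone, at 3.16, 2.93 and 2.86 with isotype, and at 2.95, 3.05 and 3.08 with anti-PD1. The groups were separated by more than 1 log2 unit although the gene was among the low ones. The rise was 3.54-fold with isotype (1.83 ± 0.23 SE, limma adjusted p = 4.59e-04) and 3.65-fold with anti-PD1 (1.87 ± 0.23, adjusted p = 4.01e-04). Exons of Rab20 overlap those of the opposite-strand RNA E230013L22Rik over 356 bases, and the sources used here do not say if reads were counted by strand, so reads there cannot be told apart.

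Rab12, which takes part in sending recycling endosome cargo to lysosomes, was at 6.02, 6.03 and 6.08 log2 CPM in MC38 alone and between 6.67 and 7.07 in the 6 co-culture libraries. It rose 1.74-fold with isotype (0.80 ± 0.12 SE, limma adjusted p = 0.00171) and 1.69-fold with anti-PD1 (0.76 ± 0.12, adjusted p = 0.00234). Rab5c was at 8.16, 7.96 and 8.14 in MC38 alone and between 8.41 and 8.73 in co-culture, a rise of 0.51 ± 0.11 and 0.43 ± 0.11 on the log2 scale. Rab5a and Rab5b, its close relatives in early endosomes, did not pass in either comparison. Rab21, another early endosome Rab, passed with anti-PD1 (0.53 ± 0.13, limma adjusted p = 0.023) and was at 0.43 with isotype (adjusted p = 0.06).

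Other members of the same class fell. Rab7b, which acts in transport from lysosomes to the Golgi, was at 5.86, 5.84 and 5.66 log2 CPM in MC38 alone, at 5.08, 4.89 and 4.59 with isotype, and at 5.01, 4.65 and 4.79 with anti-PD1. Every co-culture library lay below every library of MC38 alone, and the fall was 1.91-fold with isotype (log2 fold change -0.93 ± 0.16 SE, limma adjusted p = 0.00304) and 1.95-fold with anti-PD1 (-0.97 ± 0.16, adjusted p = 0.00242). Rab7, the main late endosome Rab, did not move with it: its folds were -0.04 and -0.06 on the log2 scale, and neither passed. Rab9, which acts from late endosomes to the Golgi, was at 3.50, 3.44 and 3.78 in MC38 alone and at 2.32 to 2.88 in co-culture. It fell 2.02-fold with isotype (-1.01 ± 0.20, adjusted p = 0.00808) and 1.71-fold with anti-PD1 (-0.77 ± 0.20, adjusted p = 0.0276). Rab31 passed with isotype only (-0.42, adjusted p = 0.0377, and -0.35 with anti-PD1, adjusted p = 0.065), and Rab22a with anti-PD1 only (-0.40, adjusted p = 0.039, and -0.27 with isotype, adjusted p = 0.16).

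**Figure D2:**
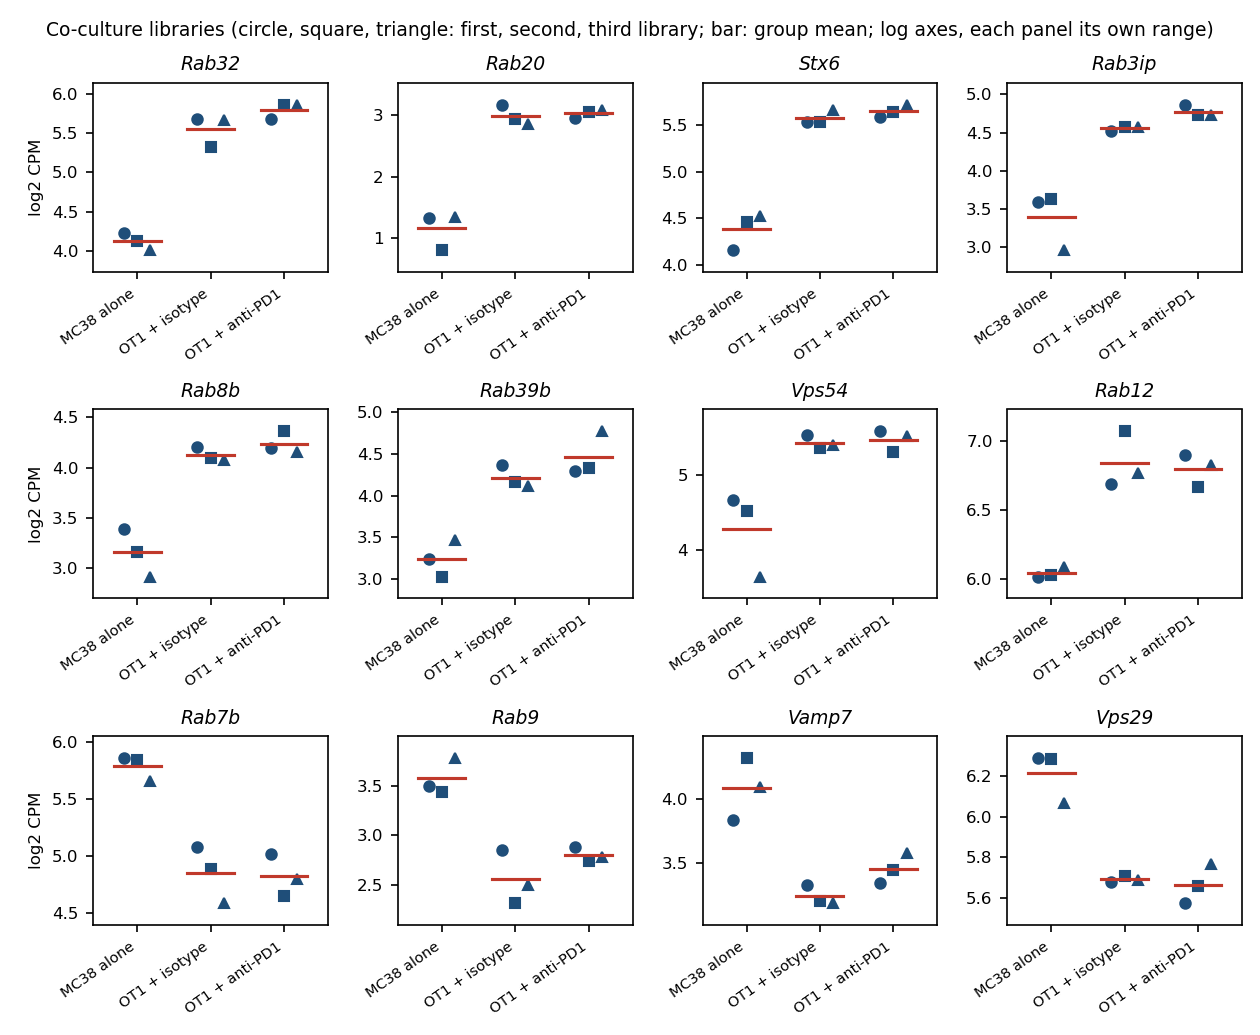
Level of 12 members in each co-culture library, in log2 CPM, with circles, squares and triangles for the first, the second and the third library of a group and a bar for the group mean. In each of the 12 panels all 6 co-culture libraries lie on one side of the 3 libraries of MC38 alone, for example 5.33 to 5.86 for Rab32 against 4.01 to 4.23.

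Of the 14 secretory and recycling Rabs, 3 passed with isotype and 4 with anti-PD1, beside 13.9% and 16.1% of all genes. Rab8b, which guides vesicles to the plasma membrane, was at 3.39, 3.16 and 2.92 log2 CPM in MC38 alone, at 4.20, 4.09 and 4.07 with isotype, and at 4.20, 4.36 and 4.16 with anti-PD1. The groups did not overlap, and the gene rose 1.95-fold and 2.12-fold (0.97 ± 0.16 and 1.08 ± 0.16 SE, limma adjusted p = 0.00313 and 0.00154). Its paralog Rab8a was at -0.45 and -0.44 on the log2 scale and did not pass (adjusted p = 0.097 and 0.095). Rab35, a Rab of fast recycling to the plasma membrane, rose by a smaller step, 0.45 ± 0.10 with isotype and 0.56 ± 0.10 with anti-PD1 (adjusted p = 0.0175 and 0.00486). Rab14, which works between Golgi and endosomes, fell in both (-0.36 and -0.40, adjusted p = 0.0436 and 0.0261). Rab3a, a Rab of regulated exocytosis, passed with anti-PD1 only, at 1.64, 2.50 and 2.11 log2 CPM in MC38 alone and 0.03, 0.33 and 0.35 with anti-PD1 (-1.85 ± 0.48, adjusted p = 0.0265). With isotype the Rab3a libraries were at 1.11, 1.33 and -0.40, a fold of -1.40 that did not pass (adjusted p = 0.083).

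Of the 11 ER and Golgi Rabs, 3 passed with isotype and 2 with anti-PD1, beside 13.9% and 16.1% of all genes. Rab39b was at 3.23, 3.03 and 3.47 log2 CPM in MC38 alone, at 4.36, 4.16 and 4.11 with isotype, and at 4.29, 4.33 and 4.77 with anti-PD1, which was 1.95-fold and 2.33-fold higher (0.97 ± 0.18 and 1.22 ± 0.18 SE, limma adjusted p = 0.00634 and 0.00156). Rab6a, a Golgi Rab, fell by a narrow margin with little spread, from 7.39, 7.59 and 7.53 in MC38 alone to 7.01 to 7.16 in co-culture (-0.39 ± 0.09 and -0.44 ± 0.09, adjusted p = 0.0207 and 0.0112). Rab43 passed with isotype only (-0.91, adjusted p = 0.0209, and -0.58 with anti-PD1, adjusted p = 0.1). Rab43 shares 4164 exonic bases with Gm45140 on the same strand, so its reads may be split between them, and Rab6a and Rab39b share 708 and 634 exonic bases with the opposite-strand genes Mrpl48 and Gm15063. Rab1a, the Rab of ER to Golgi transport, was at 6.93 to 7.21 in all 9 libraries.

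The Rab partners regulate or follow Rab proteins. Of the 7 partners, 2 passed with isotype and 3 with anti-PD1, beside 13.9% and 16.1% of all genes. Rab3ip encodes Rabin8, an exchange factor that activates Rab8. It was at 3.59, 3.62 and 2.96 log2 CPM in MC38 alone, at 4.52, 4.57 and 4.58 with isotype, and at 4.86, 4.73 and 4.73 with anti-PD1. It rose 2.24-fold and 2.61-fold (1.16 ± 0.18 and 1.38 ± 0.18 SE, limma adjusted p = 0.00213 and 7.06e-04), and so moved in the same direction as Rab8b. Without the third library of MC38 alone its log2 fold changes were smaller, 0.95 with isotype and 1.17 with anti-PD1. Rab11fip5, an effector of Rab11 on recycling endosomes, rose 1.55-fold and 1.42-fold (adjusted p = 0.0199 and 0.0476). Rab11fip1, a further Rab11 effector, passed with anti-PD1 (0.74 ± 0.19, adjusted p = 0.0261) and was at 0.52 with isotype (adjusted p = 0.11). Their partners Rab11a and Rab11b did not pass in either comparison. The second highest of the 9 Rab11b-ps2 values was 0.55 log2 CPM, and the highest, 2.62, was in the third library of MC38 alone, which also held the highest Rab11b value, 5.64 beside 4.46 to 4.89. Reads of the gene and its pseudogene cannot be told apart.

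Among SNAREs, Stx6 moved most. Stx6, a syntaxin of the trans-Golgi network and endosomes, lies on chromosome 1 from 155158715 to 155208256 (GRCm38, plus strand). It was at 4.16, 4.47 and 4.52 log2 CPM in MC38 alone, at 5.53, 5.53 and 5.66 with isotype, and at 5.58, 5.64 and 5.72 with anti-PD1. The 6 co-culture values span less than the gap to MC38 alone, and the rise was 2.29-fold and 2.40-fold (1.19 ± 0.13 and 1.26 ± 0.13 SE, limma adjusted p = 1.7e-04 and 1.17e-04). Of the 12 syntaxins, 1 passed with isotype and 2 with anti-PD1, beside 13.9% and 16.1% of all genes. The other was Stx2, a plasma membrane syntaxin (0.59 ± 0.18 with anti-PD1, adjusted p = 0.0478, and 0.51 with isotype, adjusted p = 0.086). The plasma membrane syntaxin Stx4a and the late endosome syntaxin Stx7 had folds between -0.04 and 0.05 in both comparisons.

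Of 7 VAMPs only Vamp7 passed in either comparison, beside 13.9% (isotype) and 16.1% (anti-PD1) of all genes. Vamp7 is the SNARE of lysosome exocytosis, and it fell. It was at 3.84, 4.32 and 4.09 log2 CPM in MC38 alone, at 3.33, 3.20 and 3.18 with isotype, and at 3.34, 3.44 and 3.58 with anti-PD1, which was 1.80-fold and 1.55-fold lower (-0.85 ± 0.17 and -0.63 ± 0.17 SE, limma adjusted p = 0.00902 and 0.0333). Vamp8 was at -0.08 and -0.13 on the log2 scale and Vamp5, whose level was close to 1 CPM, at -0.04 and 0.34, and neither passed. None of the 3 SNAP proteins passed. Snap23 was at -0.21 with isotype (adjusted p = 0.29) and -0.31 with anti-PD1 (adjusted p = 0.10).

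The Vps complexes are small classes, and differences between their counts were not tested. None of the 8 ESCRT members and none of the 8 HOPS and CORVET members passed in either co-culture, where 13.9% and 16.1% of all genes did. The ESCRT folds ran from -0.23 to 0.44 with isotype and from -0.15 to 0.53 with anti-PD1. Of the 4 retromer members Vps29, a core subunit, fell from 6.29, 6.28 and 6.07 log2 CPM in MC38 alone to 5.57 to 5.76 in co-culture (-0.53 ± 0.11 and -0.55 ± 0.11 SE, limma adjusted p = 0.0103 and 0.00756). Its partners Vps35 (-0.37 and -0.32) and Vps26a (-0.13 and 0.13) did not pass. Vps29 shares 340 exonic bases with the opposite-strand gene Fam216a.

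Vps54, a subunit of the GARP tether that receives vesicles from endosomes at the Golgi (chromosome 11, 21239281 to 21321136, plus strand), was at 4.68, 4.52 and 3.65 log2 CPM in MC38 alone, at 5.53, 5.36 and 5.40 with isotype, and at 5.58, 5.31 and 5.52 with anti-PD1. Every co-culture value was above every value of MC38 alone, among which the third library was lowest. It rose 2.21-fold and 2.27-fold (1.15 ± 0.23 and 1.18 ± 0.23 SE, limma adjusted p = 0.00927 and 0.00742). The other 4 members of the GARP and EARP class, Vps50, Vps51, Vps52 and Vps53, did not pass. Of the 4 Vps13 lipid transfer proteins, Vps13a fell in both (-0.74 and -0.67, adjusted p = 0.0251 and 0.0357) and Vps13b with anti-PD1 (-0.72, adjusted p = 0.0319, and -0.33 with isotype, adjusted p = 0.3). The antisense RNA Rab26os fell 1.71-fold and 1.77-fold (adjusted p = 0.00984 and 0.00656).

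**Figure D3:**
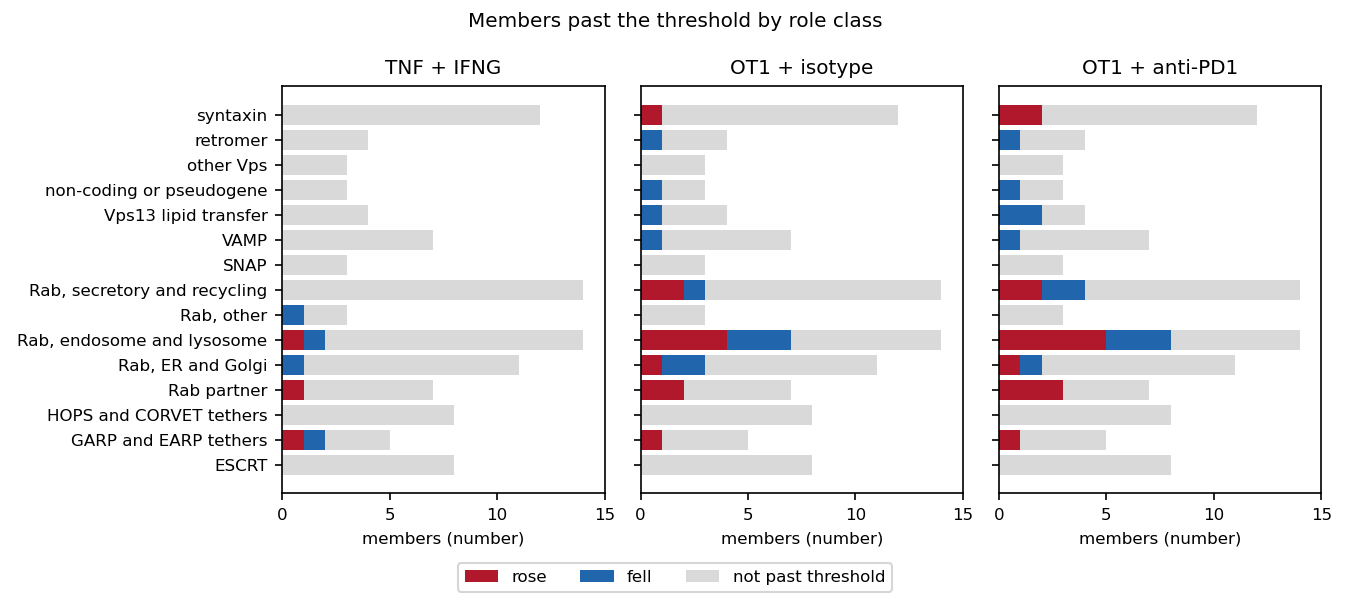
Number of members of each role class that rose (red), fell (blue) or did not pass the threshold (grey) with TNF and IFNG together, with OT1 and isotype, and with OT1 and anti-PD1. With anti-PD1 the endosome and lysosome Rabs have 5 red and 3 blue of 14, and the ESCRT and the HOPS and CORVET bars, 8 members each, are grey in all 3 panels. Over all genes tested 9.02%, 13.9% and 16.1% passed in these comparisons.

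Co-culture libraries also carry T cell RNA, and in bulk RNA fewer cells of a type and less RNA per cell cannot be told apart. Of 19 T cell markers tested, 10 rose with isotype and 8 with anti-PD1. In the first and the second library of MC38 alone 17 of the 19 markers were on the 3 lowest steps of the values, beside 3 in the third library and 0 or 1 in each co-culture library. The third library of MC38 alone therefore gives the member levels in a library that carries T cell transcripts: 11 of its 19 markers were at or above the lowest co-culture value, with Cd3d at 2.19 and Il2rb at 4.31 log2 CPM, whereas Ifng was at 1.85 beside 6.27 to 6.66 in co-culture. In that library Rab32 was at 4.01, Rab20 at 1.34 and Stx6 at 4.52 log2 CPM, all with the other libraries of MC38 alone. Of the 27 members that passed with isotype or anti-PD1, 2 (Rab11fip1 and Vps13b) lay within the co-culture range in that library. That library is a control in the fit that chose the 27, Rab32, Rab20 and Stx6 among them. Members that lie apart from co-culture in it were therefore favoured, and the count is a description only. What part T cell RNA has in the values of the co-culture libraries was not tested.

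**Figure D4:**
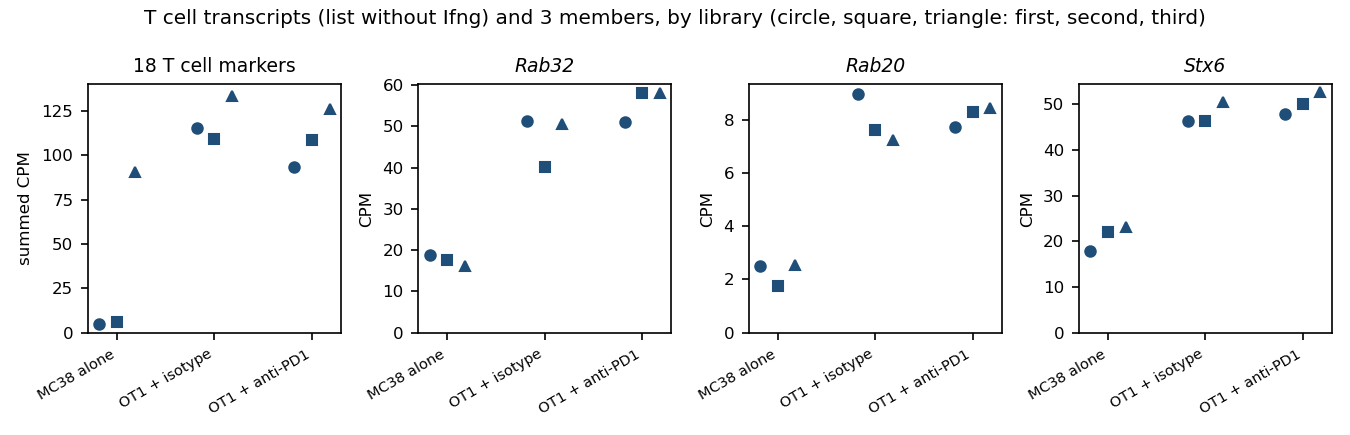
Summed level of 18 T cell markers (the list without Ifng) and the levels of Rab32, Rab20 and Stx6 in each co-culture library, in CPM on linear axes from 0, with circles, squares and triangles for the first, the second and the third library. The third library of MC38 alone (triangle) has 90.6 CPM of T cell markers, near the co-culture libraries. Its 3 member levels sit with those of the other libraries of MC38 alone. The 3 members were picked from a fit that counts this library as a control, so their place there partly follows from that choice. The part of T cell RNA was not tested.

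Without the third library of MC38 alone, all 21 calls with isotype and 23 of 25 with anti-PD1 remained, and Stx2 (adjusted p = 0.0892) and Vps13a (adjusted p = 0.0544) lost theirs. Without the third anti-PD1 library, 20 of 21 isotype calls remained, without Rab14 (limma adjusted p = 0.063), and 13 of the 25 anti-PD1 calls. Among the anti-PD1 calls Rab11fip1, Rab11fip5, Rab14, Rab21, Rab22a, Rab3a, Rab5c, Rab9, Stx2, Vamp7, Vps13a and Vps13b lost theirs. Their limma adjusted p then ran from 0.0625 (Vamp7) to 0.162 (Stx2). The counts also fell to 13 without the third isotype library, and for anti-PD1 to 14 without the first and 14 without the second anti-PD1 library and to 16 without the second library of MC38 alone. Over all 17 alternative analyses 13 of the 21 isotype calls held (Rab32, Stx6, Rab20, Rab12, Rab3ip, Rab7b, Rab8b, Rab39b, Rab9, Vamp7, Vps54, Rab26os and Vps29), and 13 of the 25 anti-PD1 calls (the same without Rab9 and Vamp7 and with Rab35 and Rab6a). No call changed its direction.

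The comparison of anti-PD1 with isotype asks what the PD1 antibody adds. No member passed, and no gene of the 12707 tested did (background 0%). At an unadjusted p under 0.05 there were 347 genes (2.73%) and 1 member, Vps26a (0.26 ± 0.11 SE, limma adjusted p = 1.00). The difference for Rab32 was 0.24 with a 95% interval from -0.06 to 0.55, for Rab39b 0.25 (-0.16 to 0.66) and for Rab20 0.04 (-0.46 to 0.55), all on the log2 scale. For Rab31 and Rab43, which passed with isotype only, the differences were 0.07 (-0.19 to 0.33) and 0.33 (-0.15 to 0.82). Each of these 5 intervals includes 0, and the data exclude neither the rises nor the falls that lie within them. Their upper ends ran from 0.33 to 0.82. Rab5a had the largest member difference, -1.02 ± 0.48, and rests on the third anti-PD1 library: it was at 5.03 and 4.29 log2 CPM in the other anti-PD1 libraries and 2.60 in the third, and without that library the difference was -0.34.

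The in vitro comparisons ask which changes the cytokines give in the absence of T cells. With TNF alone, IFNG alone or supernatant, 0 of 106 members passed, beside 0.275%, 0.354% and 0.448% of all genes. At an unadjusted p under 0.05 there were 4 members with TNF, 11 with IFNG and 7 with supernatant, beside 6.27%, 10.7% and 5.13% of all genes. Members with the smallest p were Rab11fip1 (0.68 ± 0.15 SE, limma adjusted p = 0.20), Rab7b (-0.56 ± 0.13, adjusted p = 0.24) and Rab12 (0.70 ± 0.18, adjusted p = 0.35) with TNF. With IFNG they were Rab13 (0.77), Rab28 (-0.48) and Rab5a (0.58), each with an adjusted p of 0.43 to 0.44. With supernatant they were Rab7b (-0.40), Rab12 (0.50) and Vps52 (0.68), with adjusted p of 0.68 to 0.84. Analysed without the other groups, IFNG against untreated gave 1 member.

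TNF and IFNG together moved 7 of 106 members (6.60%) past the threshold, beside 9.02% of all genes, with 3 higher (background 4.77%) and 4 lower (background 4.25%). At an unadjusted p under 0.05 there were 33 members, beside 31.1% of all genes, and the groups did not overlap for 62 (58.5%), beside 59% of all genes, with 2 libraries in each group. Rab12 was at 5.32 and 5.49 log2 CPM in untreated cells, 6.20 and 6.01 with TNF, 5.80 and 5.76 with IFNG, 6.57 and 6.43 with both, and 5.66 and 6.15 with supernatant. Both libraries given the 2 cytokines lay above all others, and the rise with both cytokines was 2.13-fold (1.09 ± 0.18 SE, limma adjusted p = 0.0164). Rab11fip1 was at 4.48 and 4.33 in untreated cells, 5.09 and 5.07 with TNF, 4.41 and 4.34 with IFNG, and 5.22 and 5.16 with both. Its level with IFNG overlapped untreated, and with both it was 1.72-fold higher (0.78 ± 0.15, adjusted p = 0.0239). Vps52, a GARP subunit, was at 2.65 and 2.25 untreated and 3.58 and 3.41 with both, 2.06-fold higher (1.05 ± 0.26, adjusted p = 0.0435). It shares 156 exonic bases with the opposite-strand gene Rps18.

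The members that fell with both cytokines came from different steps of traffic. Rab7b was at 6.02 and 5.88 log2 CPM in untreated cells, 5.36 and 5.41 with TNF, 5.64 and 5.68 with IFNG, 5.25 and 5.24 with both, and 5.60 and 5.51 with supernatant. Untreated libraries lay above every treated library, and the fall with both was 1.62-fold (-0.70 ± 0.13 SE, limma adjusted p = 0.023). Rab28, a Rab of cilia, was at 4.99 and 5.22 untreated and 4.16 and 4.25 with both, 1.87-fold lower (-0.90 ± 0.17, adjusted p = 0.0248). Vps54 was at 4.74 and 4.71 untreated, 4.40 and 4.42 with IFNG, and 4.10 and 3.77 with both, 1.73-fold lower (-0.79 ± 0.18, adjusted p = 0.0375). Rab1a was at 7.09 and 7.14 untreated and 6.25 and 6.40 with both, 1.73-fold lower (-0.79 ± 0.21, adjusted p = 0.0497).

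**Figure D5:**
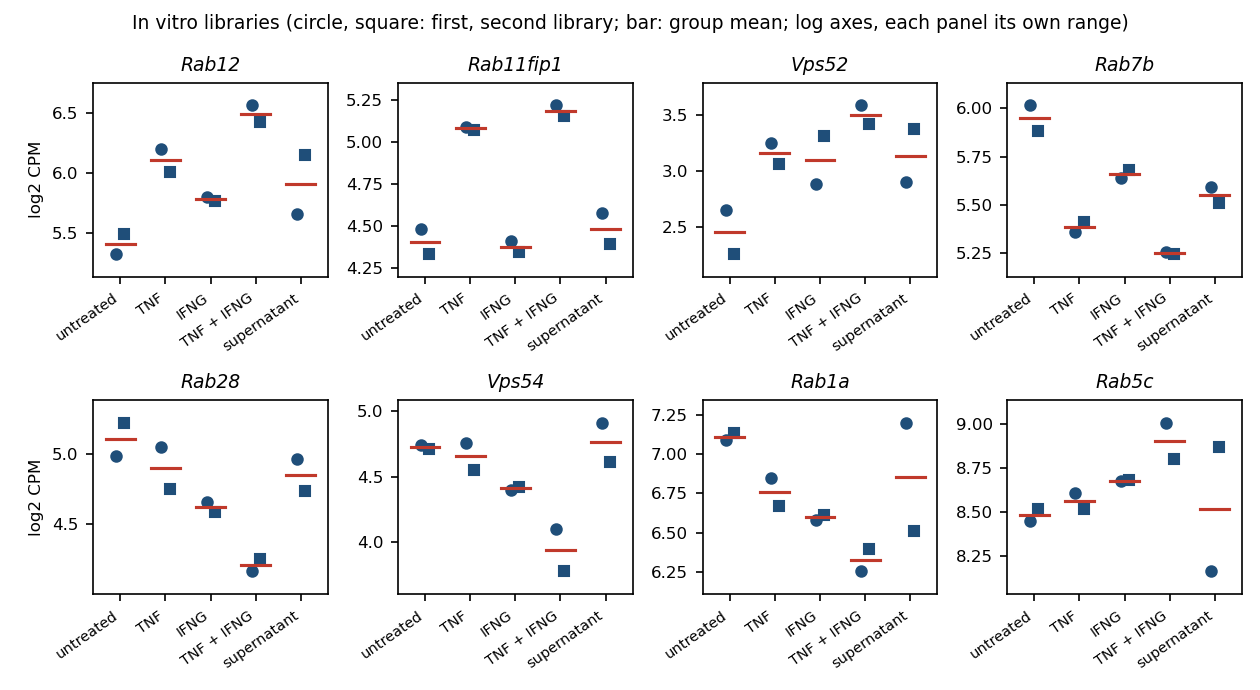
Level of the 7 members that passed with TNF and IFNG together, and of Rab5c, the most abundant member, in each in vitro library in log2 CPM, with circles and squares for the first and the second library and a bar for the group mean. Rab12 is highest with both cytokines (6.57 and 6.43) and Rab7b, Rab28, Vps54 and Rab1a are lowest there, while the supernatant libraries of Rab1a are 7.20 and 6.51.

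These 7 calls are not stable. The count was 0 without either untreated library and 0 when only the compared groups were fitted, 1 without either IFNG library or without the second TNF and IFNG library, 4 without either TNF library, and 17 without either supernatant library. The interaction compares the change with both cytokines to what adding the single-cytokine changes would give, and it passed for 0 members beside 0.0157% of all genes. At an unadjusted p under 0.05 there was 1 member, Rab6a, beside 3.93% of all genes. Its smallest member p-values were those of Rab6a (-0.42 ± 0.17 SE), Rab33b (0.88 ± 0.39) and Rab11b (-0.44 ± 0.20), each with a limma adjusted p of 0.96.

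Set side by side, 4 of the 7 members that passed with both cytokines (57.1%) were among the 27 that passed in co-culture (14.8% of those). Rab12 rose, Rab7b fell and Rab11fip1 rose in both tables, with Rab11fip1 past the threshold in co-culture with anti-PD1. Vps54 fell with both cytokines and rose with T cells. Rab1a was at -0.05 and 0.06 in the co-cultures and Vps52 at 0.13 and -0.33, and neither passed there. Rab32, Rab20 and Stx6, which rose most clearly in co-culture, had folds with both cytokines of -0.03, 0.67 and 0.01 (adjusted p = 0.95, 0.39 and 0.98). In vitro Rab20 was at 0.01 and 0.99 log2 CPM in untreated cells and 0.64 and 1.69 with both, so its groups overlapped. Across the 106 members the folds with both cytokines and those with OT1 and isotype had a Pearson r of 0.22 and a Spearman rho of 0.11, beside 0.31 and 0.16 across all 12165 genes tested in both tables; genes share their libraries and are not independent. No test was made across the tables.

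The members known for roles in secretory granules, phagosomes or interferon responses otherwise gave no call. Rab27b, a Rab of secretory granules, was at 1.33, 1.92 and 2.74 log2 CPM in MC38 alone and 0.52 to 1.71 in co-culture (-0.93 and -0.96, limma adjusted p = 0.20 and 0.17), and its fold with both cytokines was -0.94 (adjusted p = 0.12). Vamp8 had a fold of 0.48 with both cytokines (adjusted p = 0.21), Stx7 of 0.40 (adjusted p = 0.11) and Vps37b of -0.17 (adjusted p = 0.59). Stx11, a syntaxin of cytotoxic granule release that is not counted here, was at 3.09 and 2.96 log2 CPM untreated, 5.31 and 5.36 with TNF, 3.55 and 3.64 with IFNG, and 5.23 and 5.30 with both (2.24 ± 0.17 SE, limma adjusted p = 2.59e-04). In co-culture it rose by 2.31 and 2.43 on the log2 scale.

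Other genes of the pathway were counted from lists drawn up for this purpose, and their shares are read beside the 13.9% (isotype) and 16.1% (anti-PD1) of all genes that passed. Among 12 other SNAREs, 3 (25%) passed in each co-culture: Sec22a (0.86 and 0.89) and Gosr1 (0.81 and 0.89), both of ER and Golgi traffic, rose, and Bet1, a SNARE of the same route, fell (-1.07 and -1.11). Among SNARE regulators 2 of 17 (11.8%) passed in each: Sytl3, a Rab27 effector of vesicle docking, rose (3.35 and 2.89) and Unc13a fell (-1.47 and -1.44). The T cell markers that passed with isotype rose by 2.35 (Cd5) to 7.29 (Ifng) on the log2 scale. The part of T cell RNA in the Sytl3 rise was not tested. Of 58 Rab regulators 3 (5.17%) passed with isotype and 5 (8.62%) with anti-PD1, among them Tbc1d10a, a GTPase activating protein that acts on Rab35 and Rab27a, which rose (1.24 and 1.24). Of 20 other ESCRT genes 1 (5%) passed in each, Ubap1 (0.51 and 0.44), and of 46 other tethering and retromer genes 1 (2.17%) passed in each, Snx2 with isotype (-0.52) and Washc2 with anti-PD1 (-0.40). List medians with isotype were between -0.12 and 0.05 beside -0.06 over all genes tested. With both cytokines these 5 lists gave 7 calls in all, among them Chmp7 (-1.49) and Cog4 (1.15), where 9.02% of all genes passed. A share over the 5 lists together was not computed, so the count of 7 is not read against that background.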

How the data were processed

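RNA of MC38 was measured in 19 libraries, grouped by GEO's labels. The deposited values are log2 CPM, apparently quantile-normalized by the authors within each table, as read from the values; per the labels' protocols they come from QuantSeq 3' libraries. Per the submitters' processing notes, cutadapt 1.7, FastQC, featureCounts, HISAT2, limma and Subread were used with GRCm38 and mm10, with no settings listed; strand use in counting is unstated. A single model over all groups of each table was run in limma 3.58.1 (R 4.3.3) with an intensity trend, on genes at a log2 value of at least 0 in 2 (in vitro) or 3 (co-culture) libraries, 12720 and 12707 genes. P-values are 2-sided and adjusted by the Benjamini-Hochberg method over all of these, with a threshold of 0.05. The fit was tested on simulated data. Positions and overlaps are from GENCODE M21 on GRCm38, promoter windows from RefSeq (GRCm38.p6).

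The members, the role classes and the gene lists were chosen with earlier results of these data known. Named genes are the members past the threshold (the 12 largest rises and 12 largest falls where over 24 passed), in comparisons with none the 3 with the smallest p, the highest and lowest of a class, and members with textbook roles in interferon response, secretory granules or phagosomes. Relatives and complex partners of these (such as Rab5b, Rab7, Rab8a, Rab11a, Rab11b, Vps26a and Vps35) were added after their values were seen. Alternatives were no trend, other filters, median centring, library weights, a replicate block, only the compared groups, and each library left out. The analysis without the third libraries of MC38 alone and anti-PD1 together was chosen after seeing the data. OT1 T cell libraries were not analysed here.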

Additional observations from a re-analysis of the deposited data

How the results depend on the processing

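The interferon gamma comparison gave 1 member when only the compared groups were fitted, beside 0. For TNF and IFNG together the 7 members became 4 with no intensity trend, 11 with a stricter filter, 0 with only the compared groups, and 0 to 17 when single libraries were left out. Leaving out single libraries gave 13 to 26 members for OT1 with isotype and 13 to 26 for OT1 with anti-PD1, and fitting only the compared groups gave 15 for anti-PD1. The causes were not tested. Without the third libraries of MC38 alone and of anti-PD1 together, an analysis chosen after seeing the data, 25 members passed with isotype and 20 with anti-PD1. Adding the replicate block gave 5 members with both cytokines, 19 with isotype and 19 with anti-PD1, and 0 in the other comparisons. Deviations of same-numbered libraries from their group means had r from -0.29 to 0.09 in vitro and -0.05 to 0.11 in co-culture. With 2 libraries a group in vitro these deviations mirror each other. The -0.29 between same-numbered libraries (both cytokines and supernatant) is therefore 0.29 between unlike-numbered ones. Whether same-numbered libraries share a culture or a batch cannot be told from these values. Median centring shifted no library by more than 0.0121 log2. Values that are apparently quantile-normalized have nearly equal medians, so this alternative could change little. The same holds for running in vitro without the filter, which kept 12720 of 12721 genes. No member past the threshold changed direction under any alternative run. Depth limits the lowest members: in some library the 3 lowest steps of the values hold Rab15, Rab3a and Rab3d in vitro and Rab15, Vps8 and Vamp1 in co-culture.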
